A study of Homo sapiens with 5 samples.

Results

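Replication-dependent histone genes are the clustered genes that supply the bulk of histone protein while DNA is copied. Here they were taken as every gene whose deposited name starts with HIST1H, HIST2H, HIST3H or HIST4H, whatever its biotype, which gave 59 of the 33857 genes listed. Of these, 55 are protein-coding and 4 are pseudogenes. By protein type, 5 belong to the linker histone H1, 12 to H2A, 19 to H2B, 11 to H3 and 12 to H4. The HIST1 cluster holds 46 of them, on chromosome 6 between positions 26017085 and 27893843 of GRCh38. The 8 HIST2 genes lie on chromosome 1 between 149782689 and 149887916, the 4 HIST3 genes on chromosome 1 between 228424845 and 228464626, and HIST4H4 on chromosome 12 from 14767999 to 14771131.

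The RNA came from H9, a human embryonic stem cell line, grown in mTeSR medium and edited with CRISPR-Cas9, and from the study's methods, cultures were selected with puromycin before single clones were picked. Oligo(dT) beads were used to enrich polyadenylated RNA, and 5 libraries were analysed, 2 from mock control cells and 3 from cells edited at NUDT21, the gene for the cleavage factor subunit CFIm25. The labels name the groups "control KO" and "CFIm25 KO". From the study's methods, mock control clones had received the empty editing vector, and the edited cells, named CFIm25-m, were clones made with gRNAs near the start codon that kept a small amount of a CFIm25 protein shortened at its N-terminus. Each library was therefore taken to stand for 1 clone, although the labels give replicate numbers and do not tie libraries to clones. The p-values measure the spread between these libraries only. NUDT21 had normalized counts of 6503 and 6398 in mock control 1 and 2 and of 4035, 3281 and 3400 in CFIm25-m 1, 2 and 3, a log2 fold change of -0.86 (SE 0.11, adjusted p = 0.00431 by limma-trend, the test named below). All 8 embryonic stem cell markers were read in every library, from 852 to 1324 for NANOG and from 30200 to 38899 for POU5F1, and 6 of the 8 had negative log2 fold changes, among them LIN28A at -0.41 and SALL4 at -0.35. Of 12 listed markers of other cell types, SOX17 and FOXA2 of endoderm and CDX2 of trophoblast had at most 1.15 in any library. SOX1, PAX6, TBXT, MESP1, GATA3, GATA6 and MIXL1 reached more, with highest values between 4.01 for GATA6 and 29.8 for MIXL1. The fibroblast-associated collagen gene COL1A1 was read at 5749 to 8705, with every clone below both mock controls. The collagen gene COL1A2 was read at 1107 to 1493, with every clone above both. Of the stem cell markers 0 were called by limma-trend, with 2 lower at an unadjusted p under 0.05, and of 4 tested markers of other types 0 were called, with 1 lower and 1 higher.

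The mRNAs of these genes are the exception to the rule that mRNAs end in a poly(A) tail. They end a few bases after a short stem-loop, which the stem-loop binding protein SLBP recognises, and the cut is made by a complex that contains the U7 snRNP and the endonuclease CPSF3. CFIm68, the partner of CFIm25 encoded by CPSF6, is known to interact with the U7 snRNP. Oligo(dT) enrichment leaves most of this RNA behind, and what remains includes forms with a tail, which some of these genes are known to make from a poly(A) signal beyond the stem-loop. The reads described here therefore count histone RNA that was carried through poly(A) selection, and a change in it says nothing of the tail-less majority. In a bulk sample, fewer cells with the RNA and less RNA per cell cannot be told apart.

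The stem-loops below show the feature that sets these mRNAs apart, for members that the results turn on. They are GENCODE transcript sequences read 5′ to 3′, with 5 bases on each side where the transcript held them, and capitals mark the stem.
HIST1H2BK: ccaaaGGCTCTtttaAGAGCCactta
HIST1H1C: caaaaGGCTCTtttcAGAGCCacca
HIST3H2A: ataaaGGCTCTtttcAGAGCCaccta
HIST1H4I: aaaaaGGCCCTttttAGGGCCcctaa
HIST1H4J: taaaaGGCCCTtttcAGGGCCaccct
HIST1H2AG: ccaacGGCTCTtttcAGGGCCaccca
HIST2H2AC: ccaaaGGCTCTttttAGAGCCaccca
The search was for 6 base pairs (G with T allowed), starting with GG and closing with CC, around a loop of 4 bases of the form TNTN, on the sense strand of each transcript. Of the members, 53 of 59 could be matched to GENCODE transcripts by gene identifier, 52 of these held the pattern, and all 50 matched protein-coding members did. Anywhere in a transcript, the pattern stood in 556 of 19833 protein-coding genes, or 2.8%. Within 20 bases of a transcript's end, where 49 members had it, it stood in 71 of 19833 protein-coding genes, or 0.358%. Of these, 22 did not carry the gene identifier of a member, and unmatched members could be among them under other identifiers. The form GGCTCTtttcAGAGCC was shared by 28 members of types H1, H2A, H2B and H3. The form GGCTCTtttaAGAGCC was shared by 8 members, and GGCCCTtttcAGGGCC, found in H4 genes alone, by 7.

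The ends of the annotated transcripts differed between members. A transcript ending within 20 bases of the stem-loop was annotated for 49 of the 53 matched members, and one that ran on for more than 20 bases for 12. Of these 12, 10 were protein-coding. The others were the pseudogenes HIST2H2BD, which ran on for 23 bases, and HIST1H2APS4, whose match had a stem unlike that of any other member. AATAAA or ATTAAA, the usual letters of a poly(A) signal, stood in the last 40 bases of a transcript that did not end at the stem-loop for 14. HIST3H2A, an H2A gene, has such a transcript of 895 bases beside one of 510 bases that ends at the stem-loop, and its deposited gene length was also 895 bases. HIST1H2BK, an H2B gene, has 1 annotated transcript of 495 bases ending at the stem-loop, and its deposited length was 381 bases. Any reads of HIST1H2BK past those 381 bases were not counted. The deposited length was shorter than the stem-loop-ended transcript for 26 protein-coding members, whose median of the mean normalized count was 1.98. It was more than 100 bases longer for 20 members, with a median of 8.80. A longer gene model can collect more reads, so these medians are no measure of how often a tail is added.

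Histone reads were rare in every library. They numbered 802 and 1002 in mock control 1 and 2 and 786, 955 and 561 in CFIm25-m 1, 2 and 3, out of 18754108 to 23372391 reads per library. As a share of the library, this was 42.8 and 44.6 CPM in the mock controls, against 37.9, 40.9 and 26.8 CPM in the clones. The 95% Wilson interval of CFIm25-m 3, from 24.7 to 29.2 CPM, lay below those of the other 4 libraries, of which the lowest bound was 35.3 CPM. These intervals cover counting error only. Of the 59 genes, 21 had fewer than 10 reads over all libraries, 11 had at least 100, and 36 had a read in every library.

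Most of the signal came from few genes. The 8 genes with the largest mean normalized count, HIST2H2BC, HIST3H2A, HIST1H2BH, HIST1H2BK, HIST1H1C, HIST1H2AC, HIST2H2BD and HIST1H4I, held 66.5% of the summed level. HIST2H2BC and HIST2H2BD, H2B pseudogenes of the HIST2 cluster that overlap on opposite strands over 1989 bases, held 17.7%. Without a stated strand setting, reads in their overlap cannot be assigned to either.

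Per kilobase of deposited gene length, the highest mean normalized counts were those of HIST1H2BK at 195, the linker histone gene HIST1H1C at 105 and HIST3H2A at 94.9. The H2A gene HIST2H2AC followed at 53.6, then HIST1H4J at 43.5, HIST1H2BH at 41.2, HIST1H2AC at 30.2, HIST1H4I at 27.8, the linker histone gene HIST1H1A at 20.3 and the H4 gene HIST1H4K at 16.5. The median by type was between 2.94 for H3 and 8.50 for H2A. The 12 replication-independent histone genes, which mostly make polyadenylated mRNAs and supply histones outside S phase, had a median of 1214 per kilobase. H2AFZ, the gene for the variant H2A.Z, had the highest level among them at 3699 per kilobase.

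**Figure D1:**
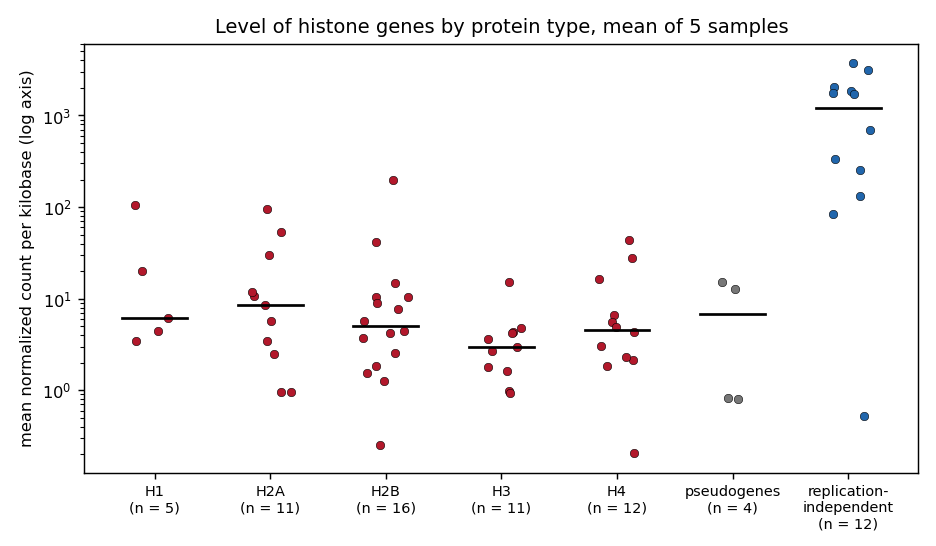
Mean normalized count per kilobase of deposited gene length over the 5 libraries (log axis), 1 point per gene, with protein-coding members grouped by histone type, the 4 pseudogenes apart and the 12 replication-independent histone genes on the right; bars mark medians. The highest member, HIST1H2BK at 195, lies below the median of the replication-independent genes at 1214.

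The summed level of the 55 protein-coding members is not changed by how reads are split among these members, although near-identical copies outside the sum, such as the pseudogene HIST2H2BD, and dropped reads could still change it. It was 784 and 813 normalized counts in mock control 1 and 2 and 629, 713 and 415 in CFIm25-m 1, 2 and 3. Every clone lay below both mock controls. The means were 798 ± 20.4 (SD, n = 2) and 586 ± 154 (SD, n = 3), a log2 ratio of -0.45. CFIm25-m 3 stood at 51.9% of the mock control mean, CFIm25-m 1 at 78.9% and CFIm25-m 2 at 89.3%. Without CFIm25-m 3 the log2 ratio was -0.25. No test was run on a sum over members chosen as a list. The 4 pseudogenes together had 141 and 154 in the mock controls, against 158, 147 and 125 in the clones, and these ranges overlapped.

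The types did not all follow the same order of libraries. H4 genes summed to 114 and 121 in the mock controls, against 72.2, 86.4 and 73.1 in the clones, so CFIm25-m 3 was not the lowest. H1 genes summed to 123 and 113 against 80.2, 99.0 and 37.5, with CFIm25-m 3 far below the other clones. H3 genes, the scarcest type, summed to 36.9 and 38.6 against 31.1, 18.0 and 26.0. In these 3 types the groups did not overlap. For H3 this rested on few reads. As 1 read counted 1.15 in mock control 1 and 1.00 in CFIm25-m 1, much of the gap between these libraries came from the size factors. H2A genes, with 199 and 269 against 176, 220 and 115, and H2B genes, with 310 and 271 against 270, 290 and 163, overlapped between the groups.

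By position, the 45 protein-coding HIST1 genes summed to 627 and 605 in the mock controls, against 497, 511 and 305 in the clones, without overlap. The 6 protein-coding HIST2 genes summed to 40.3 and 63.7 against 48.1, 77.4 and 47.1, and the groups overlapped with a log2 ratio of 0.15. The lower sum in the clones was thus made up mainly by HIST1 genes and, in CFIm25-m 1 and 3, by HIST3H2A.

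For single genes, normalized counts were compared as log2(value + 1) with limma-trend, a linear model with a variance that depends on the level, over the 19232 genes with at least 10 in at least 2 libraries. Fold changes are on this scale, which understates those of low genes. Adjusted p-values follow Benjamini and Hochberg, over all tested genes. Of the 59 members, 20 passed this filter. HIST1H2BD and HIST1H2BJ passed through mock control libraries alone and HIST1H2BC through CFIm25-m libraries alone, so the direction of the first 2 was fixed by the filter. For HIST1H2BC the filter favoured higher values in the clones without fixing the direction. None of the 20 passed an adjusted p of 0.05 in limma-trend in either direction, and 0 did so in the edgeR quasi-likelihood test or in DESeq2. Of all tested genes, limma-trend called 0.936% lower and 0.941% higher, edgeR 0.905% in each direction, and DESeq2 1.64% lower and 2.05% higher. At an unadjusted p under 0.05, 2 members were lower and 0 higher, beside 7.15% and 7.99% of all tested genes. HIST1H2BJ, with its direction fixed by the filter, was among the lower ones. The spread behind these values is wide. The median SE on the log2 scale was 0.40 for the members and 0.16 for all tested genes. It was 0.37 for tested genes with mean normalized counts in the members' range.

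Of the 20 log2 fold changes 16 were negative, beside 51.8% of all tested genes, and their median was -0.51, beside -0.01. HIST1H2BD and HIST1H2BJ, whose direction the filter fixed, were among the 16. Without the filter, 41 of the 59 members were negative, with a median of -0.32. A share over all genes without the filter is not given. Among the 6856 tested genes with mean normalized counts in the members' range, 5.98 to 98.2, 39.1% were negative, 1.23% were called in either direction and the median was 0.13. For 7 of the 20 members every clone lay below both mock controls, which held for 19.8% of all tested genes, and for 0 every clone lay above both, beside 17%. These 7 were all HIST1 genes, and HIST1H2BJ and HIST1H2BD, which had passed through mock control libraries alone, were among them. In HIST1H1C, HIST1H2AC and HIST1H2BD, CFIm25-m 2 had more reads than mock control 1, at 88, 53 and 11 against 76, 45 and 10. For these genes only the size factors parted the groups. The 14 tested HIST1 genes had a median of -0.62, with 12 negative, HIST1H2BD and HIST1H2BJ among them. The other 6 had a median of -0.05, with 4 negative, and the difference between the clusters was not tested. Over the 39 members below the filter, every clone lay below both mock controls for 9, or 23.1%, and above both for 1. The same share over all genes below the filter is not given, so nothing particular to histone genes can be read from this. For 5 of the 9 a clone had at least as many reads as a mock control, so that only the size factors parted the groups. For the 39 together, the summed level was 104 and 129 in the mock controls, against 109, 64.8 and 82.7 in the clones.

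**Figure D2:**
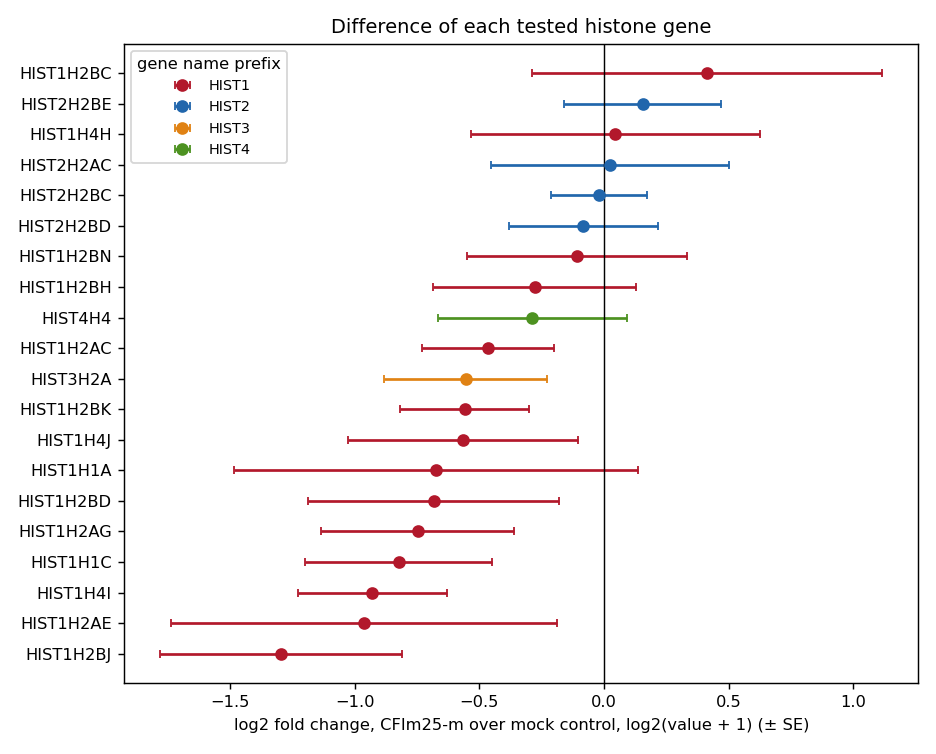
Log2 fold change of CFIm25-m (n = 3) over mock control (n = 2) on the log2(value + 1) scale for each of the 20 tested members, with bars of ± 1 SE and colours for the gene name prefix. Of the 20 points 16 lie left of 0, from -1.30 for HIST1H2BJ to 0.42 for HIST1H2BC, and none passed an adjusted p of 0.05. The filter fixed the direction of HIST1H2BJ and HIST1H2BD.

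HIST1H4I (ENSG00000276180), an H4 gene at 27138588 to 27139881 on the plus strand of chromosome 6, had the smallest p-value among the members. Its normalized counts were 50.7 and 50.2 in mock control 1 and 2 and 31.1, 27.9 and 20.2 in CFIm25-m 1, 2 and 3. The mock controls lay close together and every clone was lower. The log2 fold change was -0.93 (SE 0.30), with an unadjusted p of 0.0113 and an adjusted p of 0.179 by limma-trend. Without CFIm25-m 3 it was -0.76, with an adjusted p of 0.138. Its GENCODE transcript, of 397 bases, ends 9 bases after the stem-loop printed above. The deposited gene length was 1294 bases, so reads outside that transcript could be counted.

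HIST1H2BJ (ENSG00000124635), an H2B gene at 27125897 to 27132750 on the minus strand of chromosome 6, had 16.1 and 11.6 in the mock controls, against 7.02, 4.50 and 3.85 in the clones. The groups did not overlap, at levels of few reads, and the direction was fixed by the filter. The log2 fold change was -1.30 (SE 0.48), with an unadjusted p of 0.0236 and an adjusted p of 0.243 by limma-trend. HIST1H2BD, another H2B gene that passed through mock control libraries alone, had 11.5 and 11.6 against 8.02, 9.90 and 3.85.

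HIST1H1C (ENSG00000187837) encodes a linker histone, which binds the DNA between nucleosomes, and lies at 26055787 to 26056428 on the minus strand of chromosome 6. It had 87.6 and 88.8 in the mock controls, against 54.1, 79.2 and 27.9 in the clones. Every clone was below both mock controls, but the clones differed more from each other than CFIm25-m 2 did from the mock controls. The log2 fold change was -0.82 (SE 0.38, adjusted p = 0.337 by limma-trend). HIST1H1A, the other tested linker histone gene, at 26017085 to 26017732 on the minus strand of chromosome 6, had 26.5 and 6.76 against 17.0, 13.5 and 1.92, with a spread between the mock controls that covered clones 1 and 2.

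Among the H2B genes, HIST1H2BK (ENSG00000197903), at 27146418 to 27146798 on the minus strand of chromosome 6, had 100.3 and 83.0 in the mock controls, against 70.2, 72.0 and 46.2 in the clones. All clones lay below both, with a log2 fold change of -0.56 (SE 0.26, adjusted p = 0.343 by limma-trend). A share of 22.5% of its 100-base windows occurs in another gene, so some of its reads may have been assigned elsewhere or dropped. HIST1H2BH (ENSG00000275713), at 26251651 to 26253710 on the plus strand of chromosome 6, had 106 and 75.3 against 94.2, 111.6 and 37.5. Only CFIm25-m 3 was below the mock controls, and the log2 fold change of -0.28 became 0.20 without that clone. HIST2H2BE (ENSG00000184678), at 149884459 to 149886652 on the minus strand of chromosome 1, whose only GENCODE transcript runs 1729 bases past the stem-loop to a poly(A) signal, had 26.5 and 33.8 against 28.1, 43.2 and 30.8. The groups overlapped, with a log2 fold change of 0.15 and a 95% interval from -0.55 to 0.86.

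Among the H2A genes, HIST1H2AC (ENSG00000180573), at 26124145 to 26139116 on the plus strand of chromosome 6, had 51.9 and 69.5 in the mock controls, against 46.1, 47.7 and 36.6 in the clones. The groups did not overlap, with a log2 fold change of -0.47 (SE 0.27, adjusted p = 0.442 by limma-trend). HIST1H2AG had 34.6 and 29.0 against 23.1, 23.4 and 11.5, again without overlap and with an adjusted p of 0.402. HIST3H2A (ENSG00000181218), at 228456979 to 228457873 on the minus strand of chromosome 1, had 86.4 and 119.7 against 67.2, 105.3 and 46.2. CFIm25-m 2 lay between its mock controls. HIST2H2AC (ENSG00000184260), at 149886975 to 149887364 on the plus strand of chromosome 1, had 12.7 and 29.0 against 17.0, 32.4 and 13.5, with no order between the groups.

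Of the remaining H4 genes named by level, HIST1H4J (ENSG00000197238), at 27824108 to 27824480 on the plus strand of chromosome 6, had 20.7 and 18.3 in the mock controls, against 8.02, 22.5 and 11.5 in the clones. CFIm25-m 2 was the highest of the 5 libraries and CFIm25-m 1 the lowest. HIST1H4K, at 27831216 to 27831527 on the minus strand of chromosome 6 and below the filter, had 8.07 and 7.72 against 8.02, 0.90 and 0.96. These 2 genes share 90.7% and 91.3% of their 100-base windows with other genes, so the split of reads between such copies is uncertain.

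**Figure D3:**
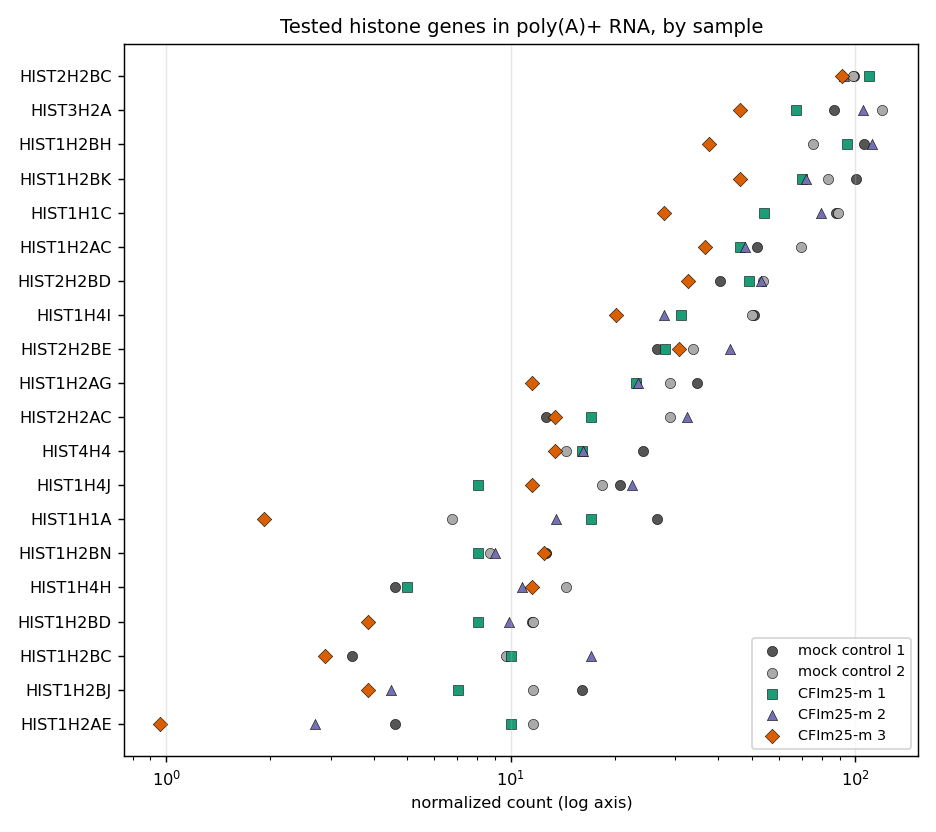
Normalized count (log axis) of each of the 20 tested members in each library, with circles for the 2 mock controls and a square, a triangle and a diamond for CFIm25-m 1, 2 and 3. CFIm25-m 3 holds the lowest value for 15 of the 20 genes, as for HIST1H1C at 27.9 against 87.6 and 88.8 in the mock controls.

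CFIm25-m 3 carried much of the lower level. The median log2 difference of the 20 members from the mock control mean was -0.36 in CFIm25-m 1, -0.12 in CFIm25-m 2 and -0.90 in CFIm25-m 3, with 14, 12 and 17 members below it. HIST1H2BD and HIST1H2BJ, which had passed through mock control libraries alone, were below it in each clone. Over all tested genes these medians were 0.00, 0.00 and -0.02. CFIm25-m 3 was the lowest library for 15 of the 20 members, beside 32.5% of all tested genes. Without it the median log2 fold change of the tested members was -0.27, with 12 of 19 negative.

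Some other measures were also at their highest or lowest in CFIm25-m 3. The summed level of snRNAs, scaRNAs and snoRNAs, further short RNAs that mostly lack a poly(A) tail, was 2186 and 2078 in the mock controls, against 2235, 2001 and 2967 in the clones. This sum was thus highest in the library with the lowest histone level. The sum over all 738 listed RNAs without a tail, with the signal recognition particle RNA RN7SL2, went the other way. It was 15193.5 and 13908.3 in the mock controls, against 11790.5, 6908.8 and 7551.7 in the clones. RN7SL2 alone held 13007 and 11831 of it, against 9554, 4904 and 4583. Of 58 tested RNAs without a tail, RN7SL2 included, 0 were called by limma-trend, edgeR or DESeq2, and 1 was lower and 7 higher at an unadjusted p under 0.05. The summed level of S phase genes, such as those of the MCM helicase, was 61931 and 62806 against 63469, 63271 and 56116, with CFIm25-m 3 the lowest. The sum over all listed genes was also lowest in CFIm25-m 3, at 20098466, beside 20789306 to 21681222 in the other libraries. By gene length and introns, the values of all clones were as follows. Protein-coding genes under 1000 bases, members left out, had median log2 differences from the mock controls of -0.05, 0.05 and -0.12 in CFIm25-m 1, 2 and 3, and those without an intron of 0.00, 0.03 and -0.08. For other protein-coding genes these were -0.01, -0.01 and -0.07. The part of these measures in the histone level was not tested.

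**Figure D4:**
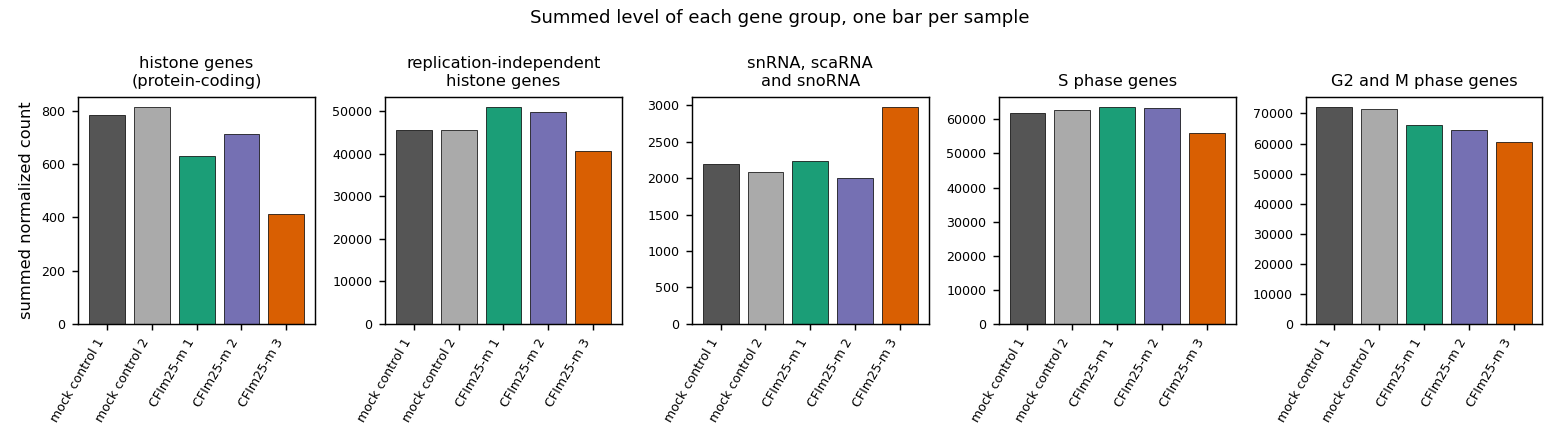
Summed normalized count per library (linear axes from 0, a different scale in each panel) for the 55 protein-coding histone members, 12 replication-independent histone genes, 736 snRNA, scaRNA and snoRNA genes, 18 S phase genes and 14 G2 and M phase genes. CFIm25-m 3 has the lowest sum of histone members, 415, and the highest of the snRNA, scaRNA and snoRNA genes, 2967. RN7SL2 is not in that panel.

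The replication-independent histone genes showed no common direction. Of 12 listed, 11 were tested, 1 was called higher in CFIm25-m and 0 lower by limma-trend, and the median log2 fold change was -0.02, a sign that turned positive under other scalings. H1F0, the gene for a replacement linker histone made from polyadenylated mRNA, passed the test, with 3149 and 3122 in the mock controls, against 7148, 4504 and 5898 in the clones. Its log2 fold change was 0.87 (SE 0.16, adjusted p = 0.0276 by limma-trend), and the call was lost without either mock control or without CFIm25-m 1 (adjusted p = 0.143, 0.153 and 0.084). H1FX, another linker histone gene, had 2211 and 2334 against 2937, 3124 and 2561, with an adjusted p of 0.167. The summed clustered H1 genes and these single-copy H1 genes thus lay on opposite sides of the mock controls in every clone, which is a description of levels and was not tested. CENPA, the centromeric H3 variant, had 556 and 592 against 450, 546 and 384, with an adjusted p of 0.332. H3F3A, H3F3B and H2AFZ each had their lowest value in CFIm25-m 3.

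Genes that make, bind or process histone mRNA, and genes of histone chaperones, did not pass the test. Of the 20 genes for histone mRNA 3′ end formation, all tested and with NUDT21 left out, 0 were called by limma-trend in either direction and 0 had an unadjusted p under 0.05. Their median log2 fold change was -0.09. SLBP had 1195 and 1274 in the mock controls, against 1214, 1221 and 953 in the clones, with an adjusted p of 0.635. CPSF6 had 5204 and 5183 against 5678, 5748 and 5968, with an adjusted p of 0.425, and CPSF3 had 2123 and 1999 against 2258, 2060 and 1807. Of the 8 genes for histone gene transcription 0 were called by limma-trend and 0 had an unadjusted p under 0.05, and NPAT, the cyclin E-CDK2 substrate that activates histone genes, had 556 and 566 against 575, 438 and 487. Of the 8 histone chaperone genes 0 were called by limma-trend, with 7 negative and a median of -0.13. DAXX, the chaperone of the variant H3.3, had the only unadjusted p under 0.05 among them. In edgeR and DESeq2, 0 genes of these 3 lists were called.

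No cell cycle gene passed the limma-trend test. Of 18 S phase genes 0 were called in either direction by limma-trend, with 2 higher at an unadjusted p under 0.05 and a median log2 fold change of -0.04. Of 14 G2 and M phase genes 0 were called, with 5 lower at an unadjusted p under 0.05 and a median of -0.18. For 10 of these 14 every clone lay below both mock controls, beside 19.8% of all tested genes, as for MKI67, the proliferation marker Ki-67, at 8700 and 8922 against 7064, 7293 and 6971. EdgeR called 0 genes of either list, and DESeq2 called 1 S phase gene higher and 1 G2 and M phase gene lower.

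Genes that lie among the HIST1 genes but encode no histone were not called lower in the clones. Of 35 listed, 21 were tested, 0 were called lower and 1 was called higher by limma-trend. This was BTN3A2, a butyrophilin gene of immune recognition, which had 116 and 89.7 in the mock controls, against 168, 201 and 222 in the clones (log2 fold change 0.93, SE 0.19, adjusted p = 0.0432). The call was lost on leaving out either mock control, CFIm25-m 1 or CFIm25-m 2 (adjusted p from 0.0907 to 0.467). For 7 of the 21 every clone lay above both mock controls, beside 17% of all tested genes, and for 0 below both, beside 19.8%, and the median log2 fold change was 0.10. The 14 tested HIST1 genes in the same stretch of chromosome 6 had 7 below, with HIST1H2BJ and HIST1H2BD placed there by the filter, and 0 above, and the difference between these neighbouring sets was not tested.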

How the data were processed

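Poly(A)+ RNA of H9 cells was sequenced as paired reads. The authors deposited 1 table in which each value is a signal, the read count of a gene divided by a size factor of its library. The submitters' processing notes name HISAT2, featureCounts of Subread, DESeq2 and hg38, while strand and multi-mapping settings are not given in the sources used here. The deposited group means, log2 fold changes and p-values are the authors' own comparison and were not used. All 59 members overlapped their RefSeq position in GRCh38.p14. Dividing each library's values by the value of a single read returned whole numbers for 100% of them, within a tolerance of 0.05 reads. Read totals were 18754108 to 23372391, no listed gene was at 0 in all libraries, and a count of 0 in a library allows an expected count of up to 3 reads.

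Samples were grouped by their labels. Normalized counts were tested on log2(value + 1) with limma-trend (limma 3.58.1, R 4.3.3), over genes with at least 10 in at least 2 samples, at a Benjamini-Hochberg adjusted p of 0.05. As alternatives, the reads so recovered were tested with edgeR 4.0.16 and with DESeq2 1.42.0, and the scaling, the filter, the pseudocount and the variance model were changed, the replicate number was added as a block, or 1 sample was left out. The fit was tested on simulated data. Sums are over normalized counts, and 2 libraries against 3 limit every comparison.

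Members and gene lists were chosen with earlier results of these data known. Members were named by an unadjusted p under 0.05, by rank among the first 10 per kilobase of deposited gene length, or as the 3 largest changes each way among those with a mean of at least 50 and no overlap. Genes of other lists were named when past the threshold, and those named besides, HIST1H2AG, HIST1H2BD, HIST1H2BC, HIST2H2BE, the pseudogenes, H1FX, CENPA, H2AFZ, SLBP, CPSF6, CPSF3, NPAT, DAXX, MKI67 and RN7SL2 among them, were chosen after their values were seen. Stem-loops were searched in GENCODE v44 transcripts mapped to GRCh37, matched by gene identifier, from which no coordinates were taken. The result for 1 gene is not reported here.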

Additional observations from a re-analysis of the deposited data

How the results depend on the processing

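No histone member passed an adjusted p of 0.05 under any alternative run, with a smallest adjusted p of 0.138, and the median log2 fold change of the tested members stayed negative, from -0.67 without CFIm25-m 2 to -0.27 without CFIm25-m 3. The log2 ratio of the summed protein-coding members ranged from -0.61 to -0.25 with 1 library left out. Over all tested genes, calls ranged from 46 in limma without the trend and 66 without mock control 1 to 628 in DESeq2, 1044 without CFIm25-m 3 and 2107 with the replicate block, against 361. DESeq2 moved the split toward higher calls by less than 10 percentage points (279 lower, 349 higher), and total read scaling by more (147 lower, 240 higher).

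The libraries shared replicate numbers 1 and 2, but the clones come from different gRNAs and the deviations of same-numbered libraries had a correlation of 0.02 over 19232 genes, so the numbers were not taken as pairs. The replicate block, which gives CFIm25-m 3 a block of its own, called 0 members, 3 replication-independent histone genes higher, 3 S phase genes higher, 6 G2 and M phase genes lower and 1 higher, 1 RNA without a tail lower and 2 cluster neighbours higher. With 1 library left out, 0 to 3 replication-independent histone genes and 0 to 3 S phase genes were called higher, 0 to 1 G2 and M phase genes and 0 to 1 RNAs without a tail lower, and 0 to 2 cluster neighbours higher. Limma without the trend called 0 replication-independent histone genes and 0 neighbours, a mean of at least 50 and edgeR 0 neighbours, and DESeq2 2 neighbours higher, 1 S phase gene higher and 1 G2 and M phase gene lower. Total read scaling called 1 S phase gene higher. The cause was not tested.

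For NUDT21 the log2 fold change was -0.86 without the trend, with an adjusted p of 0.106, and from -0.95 to -0.80 with 1 library left out, where the call was lost without either mock control (adjusted p = 0.0618 and 0.0557). With 1 library left out, HIST2H2AC ranged from -0.54 without mock control 1 to 0.59 (0.02 with all libraries), HIST1H2BH from -0.58 to 0.20 without CFIm25-m 3, and HIST1H1A from -1.59 to 0.24 without mock control 1. The block turned HIST1H2BH to 0.20 and HIST1H1A to 0.15. Low counts limit these results, since 39 of the 59 members were below the filter.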

Other observations

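None of the 11 H3 genes passed the filter on low counts. HIST1H3A, the H3 gene with the highest mean, had 11.5 and 7.72 normalized counts in the mock controls, against 3.01, 0.90 and 7.69 in the clones. HIST1H3B had 4.61 and 0 in the mock controls, against 4.01, 0 and 0 in the clones. HIST1H3E had 6.92 and 5.79, against 3.01, 4.50 and 3.85. In HIST1H3E every clone lay below both mock controls, beside 19.8% of all tested genes, a set that HIST1H3E was not part of. In HIST1H3A, CFIm25-m 3 and mock control 2 had 8 reads each, so these libraries differed by their size factors alone.

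RN7SL2, an RNA of the signal recognition particle that is made by RNA polymerase III and has no long poly(A) tail, had 13007 and 11831 in the mock controls, against 9554, 4904 and 4583 in the clones. Its log2 fold change was -1.05 (SE 0.26, adjusted p = 0.0821 by limma-trend). It did not follow the histone members in CFIm25-m 2, which had the highest histone sum of the clones.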
